A study of Mus musculus with 70 samples.

Results

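The genes described here are 50 genes of DNA replication and cell division, from the origin-licensing Mcm genes to the mitotic cyclins, kinases, spindle and chromosome proteins. They were chosen by gene symbol, from a fixed list, among the 25806 genes that appear in any of the 5 deposited count tables. 47 of them are in all 5 tables, Bub1 is not in the table titled BLZ, and Kif20a and Gins2 are not in the adult Littman table. The rule did not use their measured values, but the list was chosen with earlier results of these data known. The study measured bulk RNA by CEL-Seq2, a method that tags and counts the 3′ ends of transcripts, in 500 microglia per library, sorted as CD11b+ CD45+ Ly6G- CD206- cells from perfused mouse brains. There were 70 libraries in 17 groups, and the question, per the series title, was how tamoxifen acts on gene expression in microglia of Cx3cr1CreERT2 mouse lines.

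A cell loads the Mcm2-7 helicase onto replication origins before S phase. On entering S phase it raises its supply of deoxynucleotides through ribonucleotide reductase, thymidylate synthase and thymidine kinase. In mitosis, Cdk1 with its B-type cyclins drives condensation of the chromosomes and assembly of the spindle, and the anaphase-promoting complex then ends the phase by marking cyclins for destruction. Many promoters of these genes are repressed in resting cells by E2F and DREAM complexes that read E2F and CHR elements, and p21, the product of Cdkn1a, acts upstream of both by inhibiting cyclin-dependent kinases. Microglia divide in the brain of the newborn mouse and seldom in the healthy adult, and they divide again when the population refills after depletion.

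Cre fused to a tamoxifen-binding receptor stands in the Cx3cr1 locus of both mouse lines, called Littman and Jung, and each Cre-positive animal carried the knock-in on 1 allele and so lacks 1 normal copy of this fractalkine receptor gene. The postnatal table set 5 Littman Cre- libraries (Cx3cr1 wild type) against 5 Littman Cre+ libraries, both from pups given tamoxifen, and 5 Jung libraries from oil-injected pups against 4 Jung libraries from pups given tamoxifen. The postnatal Jung mice and the Jung mice of the BLZ-titled table also carried 1 Rosa26YFP allele. In the vehicle and UC2288 table, all of the Littman line, the groups were 5 Cre- and 4 Cre+ libraries with vehicle and tamoxifen, 4 Cre+ libraries with vehicle and oil, and 3 Cre- and 5 Cre+ libraries with tamoxifen and UC2288, a compound given to inhibit CDKN1A. UC2288 was injected at 100 mg per kg in corn oil with 2% DMSO. Pups received 0.1 mg of tamoxifen on days 1 and 3 or 0.2 mg on days 5 and 7 and were 8 or 14 days old, but the labels do not give the schedule or the age of each library. Adults were 6 to 15 weeks old and received 4 mg of tamoxifen in 200 µl of oil per injection. The adult Littman table held 4 oil and 3 tamoxifen libraries, the adult Jung table held 4 of each, and the BLZ-titled table held 3 oil and 4 tamoxifen Littman libraries and 4 of each for Jung. BLZ945, an inhibitor of the CSF1 receptor that depletes microglia, was given by gavage at 100 mg per kg for 5 days, but the labels name it for the libraries titled adult Jung and not for those titled BLZ Jung. The groups follow the titles, and for the Jung adults it cannot be said which set received BLZ945. No label states that the replicates of a group were separate animals, so the p-values measure the spread between these samples, which may be technical.

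Libraries of the postnatal table held between 329329 and 450461 counts each, those of the vehicle and UC2288 table between 116083 and 277680, and adult libraries between 184513 and 347941. A single count was worth 2.22 to 3.04 CPM (counts scaled to a common library total) in the postnatal table and 3.60 to 8.62 CPM in the vehicle and UC2288 table, which sets the precision of the low members. Levels below are CPM of each library's column total, and since they are counts of 3′ tags they are not divided by transcript length. Cx3cr1, the locus of the knock-in, was lower in Cre+ than in Cre- libraries in both pup tables, at 1406 ± 109.9 against 3905 ± 122 CPM (SD, n = 5 and 5) and at 991 ± 119 against 2541 ± 282 CPM (SD, n = 4 and 5), and all 10 microglia markers were measured in every table. In bulk libraries, fewer dividing cells and less of these RNAs per cell cannot be told apart.

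Promoter sequences were looked up for the members because many of them moved together in the vehicle table. RefSeq promoters of the build GRCm38.p6 were at hand for 39 of the 50 members. In the window from 250 bases before to 50 bases after each start, and on both strands, the CHR letters TTTGAA or TTCGAA occurred in 20 of the 39 (51.3%) against 5854 of 27025 genes with such a window (21.7%). No motif's letters contain another's. The E2F letters TTTCCCGC, TTTGGCGC or TTTCGCGC occurred in 9 of 39 (23.1%) against 2.12% of genes, and CCAAT occurred in 31 of 39 (79.5%) against 41.1%. These matches are a description of letters, not of binding. Of the members printed here, Cdk1, Ccnb2 and Hmgb2 were called lower with Cre and tamoxifen in the vehicle table, and Mki67, Top2a and Smc2 were not. Each line gives the bases just before the annotated start, 5′ to 3′ on the gene's strand, with matches to the 3 motifs on either strand in capitals. The Cdk1 stretch (chr10:69352939-69353088, minus strand) ends 26 bases before the RefSeq start, and those of Ccnb2 (chr9:70421555-70421704, minus strand), Hmgb2 (chr8:57511693-57511842, plus strand), Mki67 (chr7:135716380-135716529, minus strand), Top2a (chr11:99024190-99024339, minus strand) and Smc2 (chr4:52439071-52439220, plus strand) end at it.
Cdk1: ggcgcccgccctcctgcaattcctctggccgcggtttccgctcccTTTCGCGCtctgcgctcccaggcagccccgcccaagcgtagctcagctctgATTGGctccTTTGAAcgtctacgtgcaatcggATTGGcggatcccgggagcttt
Ccnb2: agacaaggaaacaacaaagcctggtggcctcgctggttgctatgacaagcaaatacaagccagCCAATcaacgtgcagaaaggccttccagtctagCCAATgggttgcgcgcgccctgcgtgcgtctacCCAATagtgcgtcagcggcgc
Hmgb2: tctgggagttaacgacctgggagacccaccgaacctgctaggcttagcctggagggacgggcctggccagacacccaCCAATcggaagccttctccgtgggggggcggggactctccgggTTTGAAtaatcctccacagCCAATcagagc
Mki67: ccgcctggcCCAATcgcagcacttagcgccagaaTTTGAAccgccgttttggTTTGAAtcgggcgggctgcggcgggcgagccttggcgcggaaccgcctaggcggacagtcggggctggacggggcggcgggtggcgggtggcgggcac
Top2a: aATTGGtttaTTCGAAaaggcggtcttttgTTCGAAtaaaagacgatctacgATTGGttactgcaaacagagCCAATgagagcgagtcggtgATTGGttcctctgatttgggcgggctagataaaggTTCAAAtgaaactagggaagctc
Smc2: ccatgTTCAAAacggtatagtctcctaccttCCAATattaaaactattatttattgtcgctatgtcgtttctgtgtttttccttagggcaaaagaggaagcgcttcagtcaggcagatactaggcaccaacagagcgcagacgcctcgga
CHR letters stand once in each of the Cdk1, Hmgb2 and Smc2 stretches, 2 times in that of Mki67, 3 times in that of Top2a and not in that of Ccnb2, whose longer window held 2 matches outside the printed bases. Among the 15 matched members called lower with Cre in the vehicle table, 6 held CHR letters, 4 held E2F letters and 12 held CCAAT, and among the 15 matched members tested and not called, 9, 3 and 12 did.

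The summed level of the 50 genes was highest in the vehicle and UC2288 pups and lowest in the adults, although levels set across tables also carry the difference between separately made tables. In the vehicle table the 5 Cre- libraries with tamoxifen summed to 5608, 5503, 5712, 6294 and 4392 CPM, the 4 Cre+ libraries with oil to 5686, 6031, 5941 and 4920 CPM, and the 4 Cre+ libraries with tamoxifen to 3648, 4187, 4008 and 3668 CPM. Every Cre+ tamoxifen library lay below every library of both comparison groups. The ratio of group means was 0.705 against Cre- and 0.687 against oil. In the postnatal table the Littman sums were 2000, 1574, 2860, 1637 and 2242 CPM for Cre- and 2893, 1764, 2690, 2213 and 3165 CPM for Cre+, which overlap, with a ratio of 1.23. The Jung pups summed to 1545, 939, 1043, 1258 and 1292 CPM with oil and 3106, 1281, 1416 and 1467 CPM with tamoxifen. The first tamoxifen library stood far above the other 3, and without it the ratio of 1.495 became 1.14. Adult sums lay between 519 and 1493 CPM in all 3 adult tables, BLZ-titled included.

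**Figure D1:**
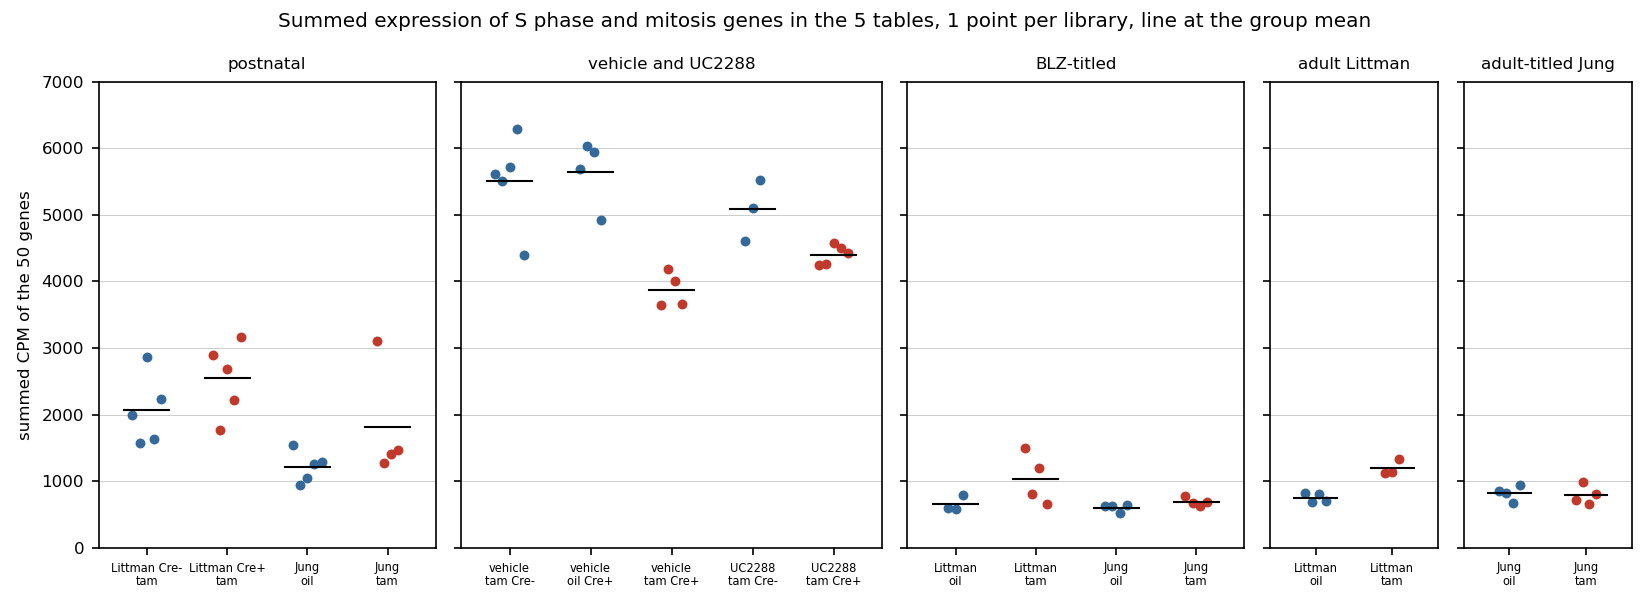
Summed CPM of the 50 replication and mitosis genes in each library of the 5 tables, 1 point per library, with red points for libraries of Cre-carrying mice given tamoxifen and blue points for the others. In the vehicle table the 4 red vehicle points sit between 3648 and 4187 CPM, below the Cre- points (4392 to 6294 CPM) and the oil points (4920 to 6031 CPM), while in the postnatal Littman groups the colours overlap.

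With vehicle, Littman Cre+ pups given tamoxifen had lower levels of many of these genes than Cre- pups given tamoxifen. 38 of the 50 members had enough counts to be tested, and 17 of the 38 (44.7%) fell while none rose (edgeR's quasi-likelihood test with Benjamini-Hochberg adjustment over 4953 genes, threshold 0.05). In this comparison 27.2% of all tested genes were called, and 12.9% were called lower, so these counts stand on a large background. The median log2 fold change of the 38 was -0.77, and that of all tested genes was -0.01. The mitotic cyclins and kinases fell in 4 of 7 tested members, nucleotide synthesis in 3 of 4, origin licensing in 3 of 7, centromere and kinetochore genes in 2 of 5, both tubulin-related genes, the single tested G1/S regulator E2f1 and the single tested partner of the anaphase-promoting complex, Ube2c. None of the 5 spindle and cytokinesis members and only Hmgb2 of the 5 chromosome structure members was called. The 12 members below the count minimum were Aurka, Bub1, Bub1b, Ccne1, Ccne2, Cdc20, Cdc6, Cks2, Gins2, Kif20a, Prc1 and Uhrf1. The comparison differs in genotype, and it was set beside a comparison within Cre+ mice, tamoxifen against oil, which uses the same 4 Cre+ tamoxifen libraries. There, 13 of the 38 fell and 1 rose, 31.4% of all genes were called (15.3% lower and 16.1% higher), the members' median was -0.73 and the median of all genes was 0.00. Cre+ pups with oil and Cre- pups with tamoxifen did not differ by a call in any member or in any other gene (0%). DESeq2 called none, and the median was -0.04. An unadjusted p below 0.05 was reached by 1 of 38 members and by 290 of 4953 genes.

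Cdk1, the kinase that starts mitosis (ENSMUSG00000019942, chr10:69335146-69352938, GRCm38, minus strand), stood at 156, 182, 202, 219 and 149 CPM in Cre-, 243, 217, 219 and 132 CPM in Cre+ with oil and 74.1, 94.5, 46.8 and 103 CPM in Cre+ with tamoxifen. All 4 tamoxifen Cre+ libraries lay below all 9 libraries of the other groups. Its log2 fold change, from counts scaled by TMM as for all fold changes here, was -1.41 ± 0.252 (SE) against Cre-, or 2.66-fold lower (edgeR adjusted p = 7.05e-05). Against oil it was -1.52 ± 0.264 (edgeR adjusted p = 4.6e-05). Ccnb2, a B-type cyclin that partners Cdk1 (ENSMUSG00000032218, chr9:70407692-70421547, minus strand), stood at 84.1, 74.9, 103, 51.9 and 97.9 CPM in Cre-, 55.6, 87.0, 158 and 90.1 CPM with oil and 25.9, 54.0, 36.0 and 20.7 CPM in Cre+ with tamoxifen. The second Cre+ tamoxifen library lay just above the lowest Cre- library, and all 4 lay below the lowest oil library. The log2 fold changes were -1.44 ± 0.355 against Cre- (edgeR adjusted p = 0.00274) and -1.61 ± 0.37 against oil (edgeR adjusted p = 0.00115). Pbk, a mitotic kinase of dividing cells, stood at 36.0, 56.2, 31.4, 46.1 and 28.0 CPM in Cre-, 70.8, 50.7, 56.1 and 55.4 CPM with oil and 11.1, 18.0, 10.8 and 13.8 CPM in Cre+ with tamoxifen, a low gene whose groups did not overlap. It fell by 3.30-fold against Cre- (log2 -1.72 ± 0.489, edgeR adjusted p = 0.00826) and had a log2 fold change of -2.23 ± 0.492 against oil (edgeR adjusted p = 0.000766). Ccnb1, the other B-type cyclin, was called in both comparisons (-1.62 and -1.68, edgeR adjusted p = 0.048 and 0.0473), with overlapping groups. That call was lost in all 3 fits against Cre- that left out 1 library and still tested it, and in 3 of 4 such fits against oil. A pseudogene is annotated for each of these cyclins, and reads shared with it cannot be told from the gene's own here. The other kinases and cyclin tested, Plk1, Aurkb and Ccna2, had values of -0.82, -0.92 and -0.65 against Cre- and did not pass.

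Ube2c, the ubiquitin-conjugating enzyme that works with the anaphase-promoting complex, stood at 90.1, 103, 121, 98.1 and 88.6 CPM in Cre-, 132, 116, 235 and 97.0 CPM with oil and 48.1, 63.0, 39.6 and 27.6 CPM in Cre+ with tamoxifen. The tamoxifen Cre+ libraries lay below all others. Its log2 fold change was -1.32 ± 0.313 against Cre- (edgeR adjusted p = 0.00188) and -1.81 ± 0.318 against oil (edgeR adjusted p = 5.18e-05). Its exons overlap the antisense gene Tnnc2, and the strand setting of the counting is not given, so part of its count is uncertain. Birc5, survivin, a subunit of the chromosomal passenger complex at the centromere, stood at 54.0, 112, 125, 109.6 and 74.6 CPM in Cre-, 116, 94.2, 133 and 152 CPM with oil and 48.1, 58.5, 43.2 and 27.6 CPM in Cre+ with tamoxifen. The first Cre- library lay within the range of the Cre+ tamoxifen libraries, and all oil libraries lay above that range. Birc5 had a log2 fold change of -1.26 ± 0.296 against Cre- (edgeR adjusted p = 0.00177) and of -1.57 ± 0.306 against oil (edgeR adjusted p = 0.000203). Cenpa, the histone H3 variant that marks centromeres, stood at 120.1, 136, 157, 185 and 135 CPM in Cre-, 101, 116, 194 and 139 CPM with oil and 59.2, 85.5, 75.6 and 75.8 CPM in Cre+ with tamoxifen, again without overlap. The log2 fold changes were -1.17 ± 0.284 (edgeR adjusted p = 0.00226) and -1.03 ± 0.304 (edgeR adjusted p = 0.00905), and the second call was lost without the third oil library. Cenpe and Cenpf, the large outer kinetochore proteins, did not pass the test (0.09 and -0.60 against Cre-). Of the spindle and cytokinesis members, Racgap1, which positions the cleavage furrow, had a value of -0.63, the spindle assembly factor Tpx2 -0.68, the spindle-bound Nusap1 -0.91, and the mitotic kinesins Kif11 and Kif23 -0.39 and -0.37, all below 0 and none called.

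**Figure D2:**
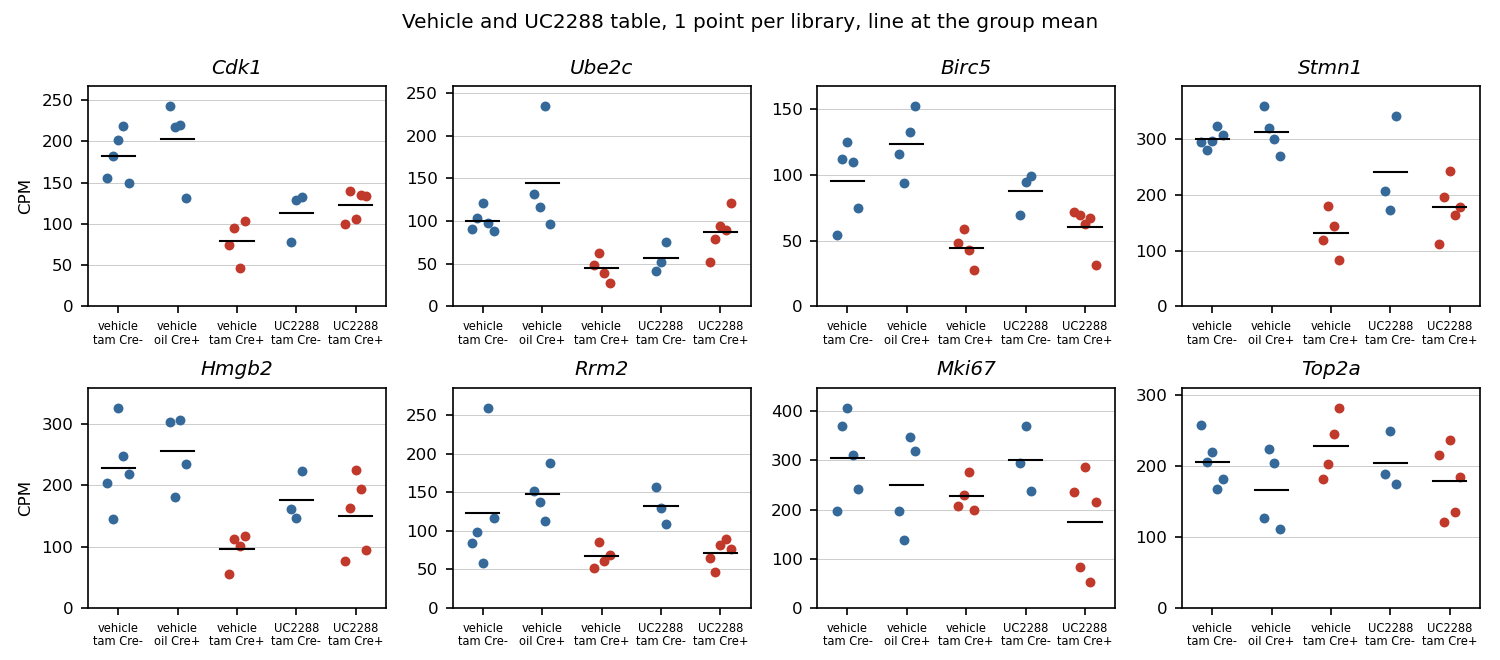
CPM of 8 members in each library of the 5 groups of the vehicle and UC2288 table, 1 panel per gene and 1 point per library. Cdk1, Ube2c, Stmn1 and Hmgb2 are lower in the 4 vehicle Cre+ tamoxifen libraries than in every Cre- and oil library with vehicle, whereas Mki67 and Top2a overlap between these groups.

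Stmn1, stathmin, which destabilises microtubules, stood at 294, 281, 296, 323 and 308 CPM in Cre-, 359, 319, 301 and 270.2 CPM with oil and 118, 180.1, 144 and 82.7 CPM in Cre+ with tamoxifen. The Cre- libraries lay close together and every Cre+ tamoxifen library was far below them. Its log2 fold change was -1.35 ± 0.243 against Cre- (edgeR adjusted p = 7.39e-05) and -1.35 ± 0.255 against oil (edgeR adjusted p = 0.000132). Tubb5, a beta-tubulin and the most abundant member in every table, stood at 1885, 1685, 1676, 2100 and 1226 CPM in Cre-, 1872, 2457, 1770 and 1476 CPM with oil and 1311, 1333, 1214 and 1165 CPM in Cre+ with tamoxifen. The lowest Cre- library lay among the Cre+ tamoxifen libraries. The change was -0.62 ± 0.182 against Cre- (edgeR adjusted p = 0.0103) and -0.71 ± 0.191 against oil (edgeR adjusted p = 0.00454). Hmgb2, a chromatin protein abundant in dividing cells (ENSMUSG00000054717, chr8:57511907-57515999, plus strand), stood at 204, 145, 327, 248 and 219 CPM in Cre-, 304, 181, 306 and 236 CPM with oil and 55.5, 113, 101 and 117 CPM in Cre+ with tamoxifen, with no overlap. It changed by -1.46 ± 0.299 against Cre- (edgeR adjusted p = 0.000458) and by -1.58 ± 0.313 against oil (edgeR adjusted p = 0.000237).

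No other member of chromosome structure was called lower. Mki67, the Ki-67 antigen that coats mitotic chromosomes and marks cycling cells (ENSMUSG00000031004, chr7:135689784-135716361, minus strand), stood at 198, 369.7, 408, 312 and 242 CPM in Cre-, 197, 138, 347 and 319 CPM with oil and 207, 229.6, 277 and 199.9 CPM in Cre+ with tamoxifen, all overlapping. Its log2 fold change of -0.61 ± 0.29 against Cre- had an unadjusted p of 0.0436 and an edgeR adjusted p of 0.117. Against oil the log2 fold change was -0.26 (edgeR adjusted p = 0.55). Top2a, the topoisomerase that untangles chromosomes (ENSMUSG00000020914, chr11:98992943-99024189, minus strand), stood at 258, 206, 219.5, 167 and 182 CPM in Cre-, 126, 225, 204 and 111 CPM with oil and 182, 203, 245 and 283 CPM in Cre+ with tamoxifen. The 3 groups overlapped, and its log2 fold change was -0.06 against Cre- (edgeR adjusted p = 0.872) and 0.32 against oil (edgeR adjusted p = 0.336). Smc2, a condensin subunit (ENSMUSG00000028312, chr4:52439243-52488260, plus strand), stood at 168, 103, 116, 121 and 103 CPM in Cre-, 101, 94.2, 96.9 and 55.4 CPM with oil and 159, 144, 176 and 131 CPM in Cre+ with tamoxifen. The oil libraries were the lowest, and against them Smc2 had a log2 fold change of 0.68 ± 0.262 (edgeR adjusted p = 0.0463), the 1 member called higher. That call was lost in 8 of 8 fits without 1 library and with DESeq2. Smc4, its partner, had a log2 fold change of -0.16 against Cre- and 0.49 against oil, with neither call made. Whether Mki67, Top2a and the Smc genes differ in response from Cdk1 and the cyclins was not tested as such.

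Among the replication genes, Rrm2, the regulated subunit of ribonucleotide reductase, stood at 84.1, 98.3, 58.2, 259.6 and 117 CPM in Cre-, 152, 138, 112 and 187 CPM with oil and 51.8, 85.5, 61.2 and 68.9 CPM in Cre+ with tamoxifen. Cre- replicate 4 stood far above the others of its group, and all oil libraries exceeded all Cre+ tamoxifen libraries. The log2 fold change was -1.04 ± 0.308 against Cre- (edgeR adjusted p = 0.0109, and 0.0905 without Cre- replicate 4) and -1.26 ± 0.322 against oil (edgeR adjusted p = 0.00294). Tk1, thymidine kinase, stood at 78.1, 98.3, 80.6, 86.5 and 83.9 CPM in Cre- and 55.5, 45.0, 43.2 and 55.1 CPM in Cre+ with tamoxifen, without overlap (-0.98 ± 0.297, edgeR adjusted p = 0.0129), a call lost without the third Cre+ tamoxifen library. Tyms, thymidylate synthase, stood at 30.0, 32.8, 62.7, 51.9 and 23.3 CPM in Cre- and 33.3, 22.5, 32.4 and 48.3 CPM in Cre+ with tamoxifen, overlapping and not called (-0.46, edgeR adjusted p = 0.402). Of the helicase genes, Mcm5 stood at 78.1, 93.6, 94.1, 98.1 and 60.6 CPM in Cre-, 91.0, 50.7, 56.1 and 76.2 CPM with oil and 48.1, 67.5, 54.0 and 34.5 CPM in Cre+ with tamoxifen. It fell against Cre- (-0.89 ± 0.264, edgeR adjusted p = 0.0118), and against oil its value was -0.54 (edgeR adjusted p = 0.162). The Mcm5 call against Cre- was lost with DESeq2, with column totals in place of TMM and without the count minimum. Mcm6 stood at 36.0, 93.6, 116, 121 and 51.3 CPM in Cre- and 81.5, 99.0, 36.0 and 55.1 CPM in Cre+ with tamoxifen, a wide spread in both groups (-0.49, edgeR adjusted p = 0.337). Mcm3, Mcm7 and Rrm1 fell against Cre- (-0.92, -1.11 and -0.87, edgeR adjusted p = 0.0188, 0.0189 and 0.0478) and none of them was called against oil. The calls of Mcm3 and Mcm7 were each lost without the third Cre+ tamoxifen library, that of Mcm3 also without Cre- replicate 4 or Cre+ replicate 2 and that of Mcm7 also without Cre- replicate 2, and those of Rrm1 and E2f1 in 6 of 9 such fits. E2f1, the transcription factor that opens S phase, fell in both comparisons (-1.56 and -2.09, edgeR adjusted p = 0.0419 and 0.00597) from means of 35.6 and 53.8 CPM to 13.6 CPM.

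**Figure D3:**
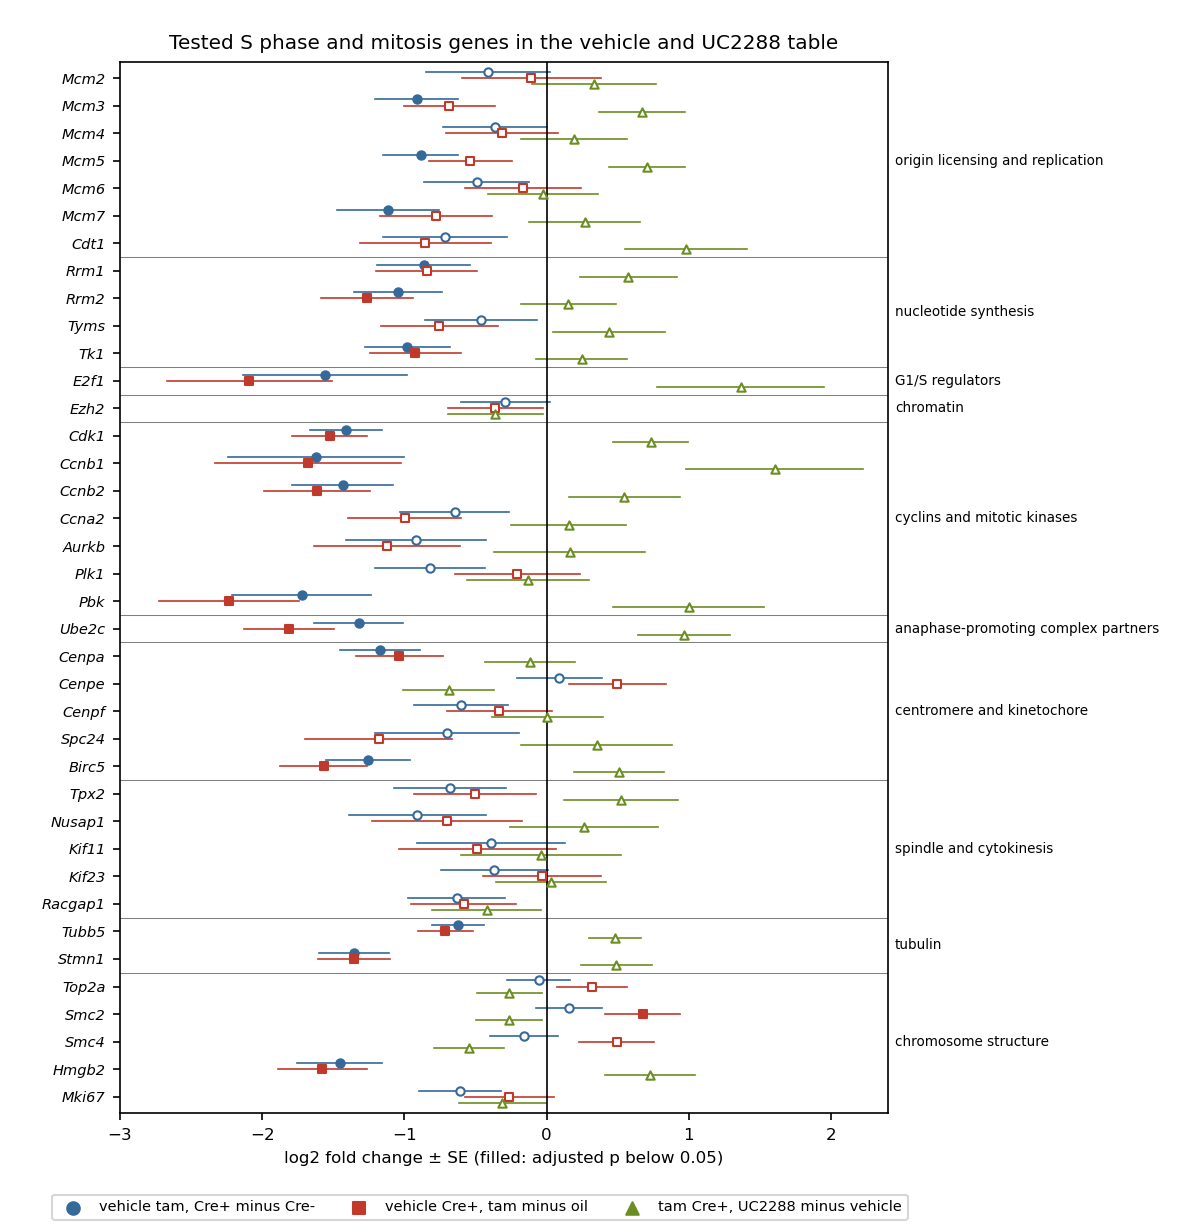
Log2 fold changes with standard errors of the 38 tested members in 3 comparisons of the vehicle and UC2288 table: Cre+ against Cre- with tamoxifen, tamoxifen against oil within Cre+, and UC2288 against vehicle within tamoxifen Cre+. Filled points passed an adjusted p of 0.05, and the first 2 comparisons share the 4 Cre+ tamoxifen libraries. Cdk1 sits at -1.41 and -1.52 in the first 2 comparisons, and no point of the third is filled.

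The number of calls depended on the scaling: with column totals in place of TMM, 10 members and not 17 were called against Cre-, and 12 and not 14 against oil. Other measures moved with the same 4 libraries. Cdkn1a, the p21 inhibitor of cyclin-dependent kinases, stood at 802 ± 191 CPM (SD, n = 4) in Cre+ with tamoxifen, 96.0 ± 31.7 CPM (SD, n = 5) in Cre- and 126 ± 55.9 CPM (SD, n = 4) with oil. It rose 7.26-fold against Cre- (edgeR adjusted p = 3.72e-10). Of the 10 microglia markers, 6 fell against Cre- and Itgam rose, and their summed level was 10090 to 11070 CPM against 17340 to 19200 CPM in Cre- and 19590 to 22100 CPM with oil. The 5 monocyte markers summed to 96.5 to 281 CPM in Cre+ with tamoxifen, 0 to 23.4 CPM in Cre- and 0 to 21.7 CPM with oil. Plac8 was the 1 tested marker of the 5 and the 1 called, while Ly6c2 and Chil3 had 0 counts in all 3 groups. Border macrophage markers summed to 82.7 to 189 CPM in Cre+ with tamoxifen, below every Cre- library (271 to 474 CPM) and every oil library (291 to 362 CPM). Of these, Mrc1 was called lower against both (-1.67 and -1.50, edgeR adjusted p = 5.99e-05 and 0.000388). The 6 astrocyte and progenitor markers summed to 133 to 198 CPM against 48.0 to 75.0 CPM in Cre- and 21.7 to 55.6 CPM with oil. Slc1a3 and Nes, both called, carried that sum, and Gfap, Aldh1l1 and Sox2 had 0 counts. Mitochondrial genes took 7.76 to 9.59% of counts in Cre+ with tamoxifen, 11.1 to 15.9% in Cre- and 8.93 to 12.3% with oil. With mitochondrial genes left out of the fit, 17 members were again called against Cre- and 14 against oil. The part of these measures in the lower member levels was otherwise not tested.

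UC2288 was compared with vehicle among the same tamoxifen groups. In Cre+ pups no member of 38 was called against vehicle (0.727% of all genes were), and DESeq2 called 1, Tubb5. An unadjusted p below 0.05 was reached by 11 members, 9 higher and 2 lower, beside 831 of 4953 genes in either direction. For each of the 38 members, vehicle and UC2288 libraries overlapped, and the share of all tested genes that did so was not counted. The members' median was 0.27, against 0.02 for all genes. Leaving out the first UC2288 Cre+ library let Ube2c pass. In Cre- pups none was called (0.0202%), DESeq2 called none, and the median was -0.18. There, 4 of 38 were lower at an unadjusted p below 0.05, beside 470 of 4953 genes in either direction. The share of all genes that were lower at that p was not counted. With UC2288, Cre+ against Cre- gave no call (4.00%), none by DESeq2, and a median of -0.27. In that comparison 5 of 38 were lower at an unadjusted p below 0.05, beside 668 of 4953 genes in either direction. Again the share of all genes that were lower was not counted. Cdk1 stood at 78.4, 129 and 133 CPM in Cre- and 100.1, 139.6, 106, 135 and 133 CPM in Cre+ with UC2288. The groups overlapped, and the Cre- libraries with UC2288 were lower than every Cre- library with vehicle. Ube2c stood at 41.5, 51.7 and 75.8 CPM in Cre- and 52.0, 79.1, 93.6, 89.8 and 121 CPM in Cre+ with UC2288, also overlapping. For both genes the effect of Cre differed between UC2288 and vehicle, with a log2 difference of 1.54 ± 0.379 for Cdk1 and 1.88 ± 0.474 for Ube2c (edgeR adjusted p = 0.0398 for each), the 2 members of 38 called in this test of the difference, where 1.94% of all genes were (0.949% higher). The difference is made of values on both sides: UC2288 against vehicle gave Cdk1 a log2 value of -0.80 in Cre- and 0.73 in Cre+, and Ube2c -0.92 and 0.96, none of them called.

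Both calls of this difference were lost when certain single libraries were left out. The number of members called became 0 without vehicle Cre- replicate 1, 2 or 3, vehicle Cre+ replicate 1 or 3, UC2288 Cre- replicate 1 or 2, or UC2288 Cre+ replicate 2 or 4. It became 1 without vehicle Cre- replicate 5, vehicle Cre+ replicate 4 or UC2288 Cre+ replicate 3, and 5 without UC2288 Cre- replicate 3. Stmn1 stood at 208, 172 and 341 CPM in Cre- and 112, 195, 243, 165 and 178 CPM in Cre+ with UC2288, and Hmgb2 at 161, 146 and 223 and 76.0, 163, 225, 195 and 95.2 CPM. Both genes overlapped between the UC2288 groups. Mki67 stood at 295, 370.4 and 237 CPM in Cre- and 236, 83.8, 287, 52.4 and 216 CPM in Cre+ with UC2288, and Top2a at 189, 249.8 and 175 and 216, 121, 237, 135 and 184 CPM, again overlapping, with Cre+ replicates 2 and 4 lowest for both. Rrm2 stood at 157, 129 and 109 CPM in Cre- and 64.0, 46.5, 81.1, 89.8 and 76.2 CPM in Cre+, without overlap (-0.91 ± 0.336, edgeR adjusted p = 0.158). The summed level of the members was 4239, 4258, 4580, 4506 and 4419 CPM in UC2288 Cre+, above every vehicle Cre+ tamoxifen library and below every UC2288 Cre- library (4606, 5108 and 5528 CPM). With TMM-scaled totals the UC2288 Cre+ and Cre- groups overlapped. Cre+ replicates 3 and 4 (5198 and 5131 CPM) then lay above Cre- replicates 1 and 2 (4822 and 5079 CPM). The ratio to vehicle Cre+ of 1.14 became 1.01 without Hmgb2, Tubb5 and Stmn1. Cdkn1a itself did not pass the test between UC2288 and vehicle in Cre+ (-0.26, edgeR adjusted p = 0.608). UC2288 Cre- replicate 1, the lowest of its group for Cdk1 and Ube2c, had a neutrophil marker sum of 646 CPM, where the other Cre- libraries with UC2288 had 0. The third UC2288 Cre+ library had a microglia marker sum of 21230 CPM, and the other 4 had 11010 to 11850 CPM.

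The same genotype comparison in the postnatal table, whose labels name no vehicle, gave values of the opposite sign. Of 31 members tested, 2 rose in Littman Cre+ against Cre- pups, both with tamoxifen, and none fell. That is 6.45% of the members where 7.80% of 7076 genes were called (4.56% higher), a share near the background. The members' median log2 fold change was 0.39, against 0.00 for all genes, and 30 of the 31 were above 0. The genes called were Ccnb2 and Mki67. Ccnb2 stood at 39.5, 5.09, 30.7, 13.3 and 26.4 CPM in Cre- and 92.9, 29.3, 36.3, 44.4 and 50.4 CPM in Cre+. The 2 lowest Cre+ libraries lay within the Cre- range, and the log2 fold change was 1.20 ± 0.322 (edgeR adjusted p = 0.0116). Mki67 stood at 187, 76.4, 207, 133 and 161 CPM in Cre- and 283, 181, 259, 202 and 266 CPM in Cre+, where 2 Cre- libraries reached the range of Cre+. Its log2 fold change was 0.69 ± 0.226 (edgeR adjusted p = 0.0491). No member's groups were apart, and the share of all tested genes whose groups were apart was not counted. The number called was 0 without Cre- replicate 2 or Cre+ replicate 1, 1 without Cre- replicate 4 or 5 or Cre+ replicate 3 or 5, 5 without Cre+ replicate 2, and 0 with DESeq2. Cre- replicate 2, the lowest of its group for Ccnb2 and Mki67, also had a neutrophil marker sum of 1097 CPM, where the other 9 Littman libraries of the table had 0. The second Cre+ library also had an immediate-early gene sum of 942 CPM, where the other 4 had 193 to 225 CPM.

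Ube2c stood at 23.7, 5.09, 35.8, 16.0 and 14.6 CPM in postnatal Cre- and 40.8, 37.2, 38.7, 22.2 and 82.5 CPM in Cre+, and its log2 fold change of 1.24 ± 0.41 just missed the threshold (edgeR adjusted p = 0.0501). Cdk1 stood at 50.1, 50.9, 107, 42.6 and 73.2 and 77.0, 66.5, 89.5, 66.6 and 84.8 CPM, overlapping (0.29, edgeR adjusted p = 0.633). Top2a stood at 47.4, 40.7, 158, 85.2 and 90.8 and 65.7, 61.2, 152, 62.2 and 158 CPM, also overlapping (0.29, edgeR adjusted p = 0.701). Of the replication genes, the log2 fold change was 0.14 for Rrm2, 0.26 for Mcm5, 0.17 for Mcm6, -0.01 for Tyms, 0.35 for Tk1, 0.39 for Rrm1, 0.27 for Mcm3 and 0.53 for Mcm7, and none of the 12 replication and G1/S members tested was called. Of the 19 mitosis members, 8 had an unadjusted p below 0.05, all higher in Cre+, beside 1370 of 7076 genes in either direction. No test compared the mitosis members with the replication members. The abundant Tubb5 stood at 559, 517, 654, 378 and 729 CPM in Cre- and 729, 442, 552, 475 and 655 CPM in Cre+, and Smc4 at 73.8, 53.5, 109.9, 79.8 and 96.6 and 106, 82.5, 152, 107 and 149 CPM, both overlapping. Microglia markers summed to 27300 to 30710 CPM in Cre- and 18560 to 24140 CPM in Cre+, with 5 of 10 called lower. Mitochondrial genes took 3.77 to 5.01% of counts in Cre- and 5.12 to 6.69% in Cre+. The monocyte markers summed to 2.56 to 53.5 and 21.3 to 66.5 CPM, with Ly6c2 and Chil3 at 0 counts in Cre+ and Plac8 called higher there, without overlap (2.30, edgeR adjusted p = 0.000207). Border macrophage markers summed to 87.8 to 128 CPM in Cre- and 106 to 289 CPM in Cre+, with Mrc1 called higher (0.60, edgeR adjusted p = 0.0297). The highest sums, 265 and 289 CPM, were those of Cre+ replicates 1 and 5, which also had the highest summed level of the members in their group. The part of these measures in the member levels was not tested. Cdkn1a rose 5.26-fold (edgeR adjusted p = 2.72e-14).

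**Figure D4:**
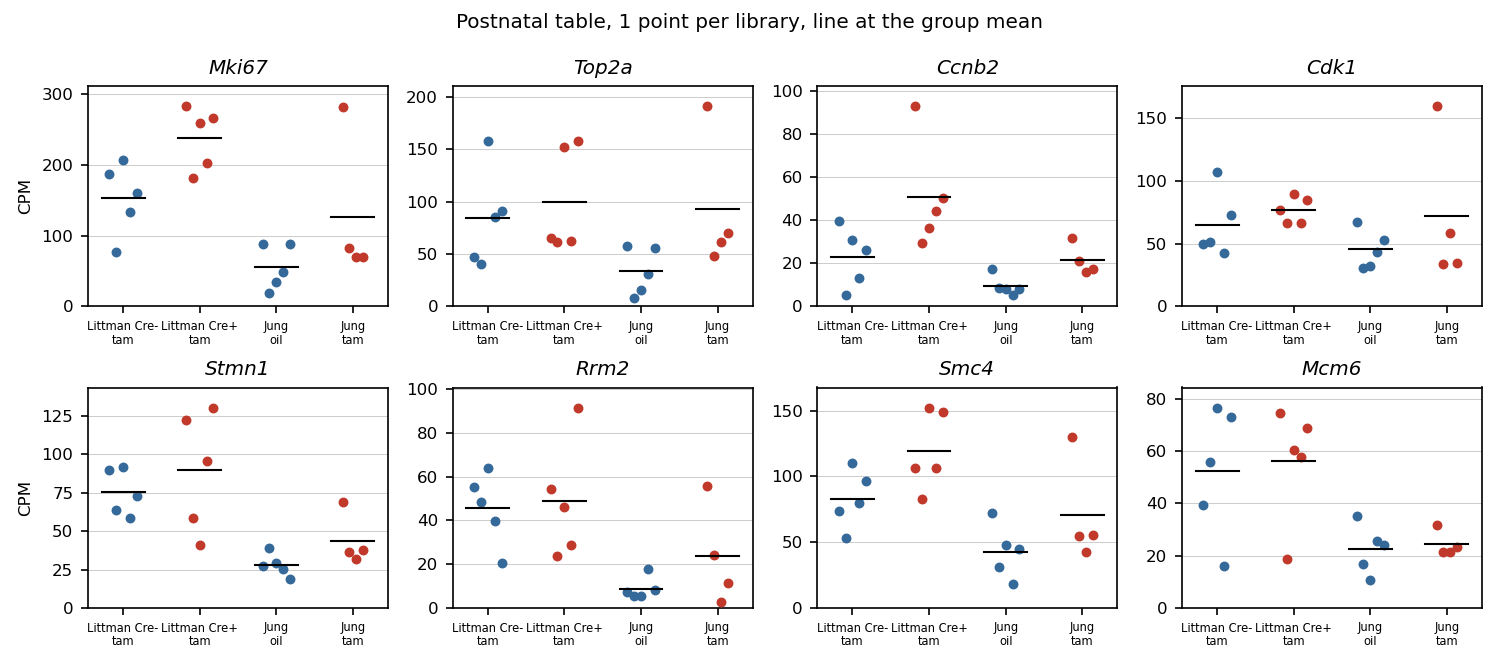
CPM of 8 members in each library of the 4 groups of the postnatal table, 1 panel per gene and 1 point per library. The first Jung tamoxifen library stands apart at 282 CPM for Mki67 and 192 CPM for Top2a, the Jung oil group has the lowest mean in every panel, and the Littman Cre- and Cre+ points overlap in every panel.

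In the Jung pups, tamoxifen against oil gave no call among 31 members (0.0848% of all genes were called), 16 higher and none lower at an unadjusted p below 0.05, and none by DESeq2. The members' median was 0.73, and that of all genes was 0.00. Mki67 stood at 87.5, 19.6, 34.6, 48.4 and 87.7 CPM with oil and 282, 82.0, 69.3 and 69.7 CPM with tamoxifen. Apart from the first tamoxifen library, tamoxifen values lay within the oil range. Top2a stood at 57.5, 8.41, 16.0, 30.6 and 55.8 CPM with oil and 192, 48.6, 61.3 and 69.7 CPM with tamoxifen, with the same library apart. The log2 fold changes were 1.18 ± 0.327 and 1.46 ± 0.397 (edgeR adjusted p = 0.292 and 0.27). Mcm7, a helicase subunit whose exons overlap Ap4m1 and Cops6 on the other strand, stood at 47.5, 47.6, 29.3, 45.9 and 31.9 CPM with oil and 63.8, 54.7, 58.7 and 61.0 CPM with tamoxifen. Mcm7 is named because its groups did not overlap (0.56 ± 0.247, edgeR adjusted p = 0.843), and the share of all tested genes without overlap was not counted. The difference between the Littman genotype effect and the Jung tamoxifen effect was called in none of the 31 (0.353% of all genes). The members' median difference was -0.27. At an unadjusted p below 0.05, 1 was lower, beside 678 of 7076 genes in either direction. DESeq2 gave an adjusted p to only 1 member here, so its lack of calls says little about the others.

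The lines also differed from each other in comparisons that share these same libraries. With tamoxifen, Littman Cre+ exceeded Jung in 5 of 31 members (16.1%) and was lower in none (6.74% of all genes called, 3.82% higher, members' median 0.59). They were Stmn1, Mki67, Mcm6, Ccnb2 and Smc4, with log2 fold changes of 1.08, 0.95, 1.25, 1.27 and 0.79 and edgeR adjusted p of 0.00543, 0.0131, 0.0155, 0.019 and 0.0362 in that order. Stmn1 stood at 122, 58.5, 41.1, 95.5 and 131 CPM in Littman Cre+ and 69.2, 36.4, 32.0 and 37.8 CPM in Jung with tamoxifen, Mcm6 at 74.8, 18.6, 60.5, 57.7 and 68.8 and 31.9, 21.3, 21.3 and 23.2 CPM. For Stmn1 the overlap came from Jung replicate 1, since the other 3 Jung libraries lay below every Littman library, and for Mcm6 it came from Littman replicate 2. The count was 14 without Jung tamoxifen replicate 1, 9 without Littman Cre+ replicate 2, 3 without Littman Cre+ replicate 1, 2 without Jung tamoxifen replicate 4, and 1 without Jung tamoxifen replicate 2 or 3. Jung oil pups against Littman Cre- pups with tamoxifen differ in line, genotype and treatment at once. Here 3 of 31 (9.68%) fell and none rose (0.791% of all genes called, 0.537% lower), and the members' median was -0.93. At an unadjusted p below 0.05, 20 were lower, beside 895 of 7076 genes in either direction. Rrm2 stood at 7.50, 5.60, 5.32, 17.8 and 7.97 CPM in Jung oil and 55.3, 48.4, 63.9, 39.9 and 20.5 CPM in Littman Cre-, without overlap (5.03-fold lower, edgeR adjusted p = 0.00252). Stmn1 stood at 27.5, 39.2, 29.3, 25.5 and 18.6 CPM in Jung oil and 89.6, 63.7, 92.0, 58.6 and 73.2 CPM in Littman Cre-, likewise apart (-1.43 ± 0.279, edgeR adjusted p = 0.00237). Mki67 was lower by log2 -1.44 (edgeR adjusted p = 0.00481). The count was 6 without Littman Cre- replicate 2 and 5 without Littman Cre- replicate 4 or Jung oil replicate 1. Since neither age nor schedule is given per library, these cannot be told apart from the line.

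The genotype effect of the vehicle table and that of the postnatal table were set against each other in 1 joint model of all groups of both pup tables, a comparison added after the data had been seen. Of 42 members tested, 18 (42.9%) had a lower Cre+ to Cre- fold change in the vehicle table and none a higher one, 17.9% of 7132 genes were called (9.17% lower), and the median difference was -1.28, against 0.00 for all genes. The mitosis members made up 13 of the 18, and the replication and G1/S members 5. Only 31 members were tested in both tables on their own, and the joint count minimum let in others. Of the 18, E2f1 was below the minimum in the postnatal table and Aurka in the vehicle table. Such members could pass through the libraries where they were high. Ccnb2, the cyclin called in opposite directions in the 2 tables, differed by -2.67 ± 0.498 (edgeR adjusted p = 7.8e-05). Ube2c differed by -2.60 ± 0.553 (edgeR adjusted p = 0.000502), Cdk1 by -1.76 ± 0.396 (edgeR adjusted p = 0.000933) and Mki67 by -1.34 ± 0.399 (edgeR adjusted p = 0.0134). The Mki67 difference joins a called value of 0.69 in the postnatal table and an uncalled one of -0.61 in the vehicle table. Top2a, Smc2, Smc4, Mcm6 and Tyms were not called, and Mcm5 and Rrm2 missed the threshold narrowly (edgeR adjusted p = 0.0508 and 0.0582). DESeq2 called 17. The count was 11 without postnatal Cre+ replicate 5 and 10 with column totals. The tables differ in vehicle injection and in how they were made, the labels do not give age or schedule per library, and these cannot be told apart.

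**Figure D5:**
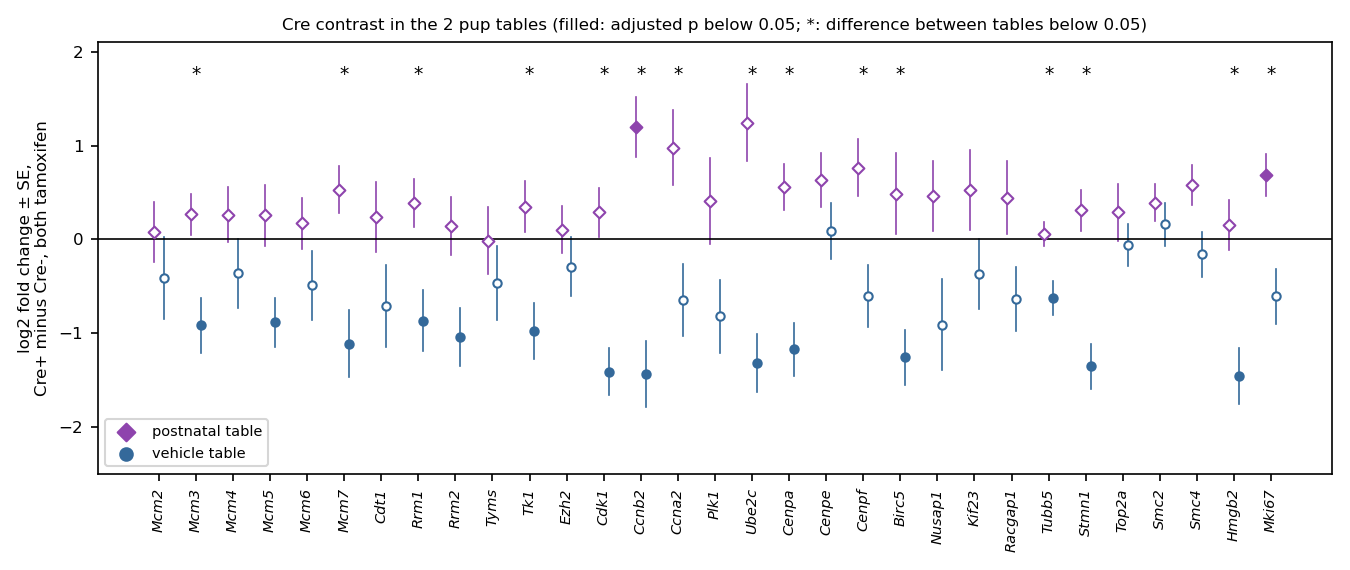
Log2 fold change of Cre+ against Cre- with tamoxifen, with standard errors, for the 31 members tested in both pup tables, with an asterisk where the difference between tables passed an adjusted p of 0.05. Most members lie above 0 in the postnatal table and below 0 in the vehicle table, for example Cdk1 at 0.29 and -1.41, while Top2a lies at 0.29 and -0.06.

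Adult microglia held few counts of these genes. Of the 48 members present in the adult Littman table, 5 could be tested. None was called with tamoxifen against oil, and none by DESeq2 (0.0181% of all genes called, the members' median 0.62). At an unadjusted p below 0.05, 2 of the 5 were higher, beside 154 of 5512 genes in either direction. Smc4 stood at 32.0, 36.8, 13.9 and 33.9 CPM with oil and 59.1, 75.0 and 69.0 CPM with tamoxifen. Tubb5 stood at 493, 389.5, 378 and 414 CPM with oil and 594, 581 and 604 CPM with tamoxifen. Neither gene overlapped between the groups, and the unadjusted p was 0.00227 for Smc4 and 0.00744 for Tubb5, with an edgeR adjusted p of 0.998 for each. The share of all tested genes without overlap was not counted, and groups of 4 and 3 libraries can separate by chance. Smc2 stood at 48.1, 39.9, 31.2 and 27.1 CPM with oil and 42.7, 78.3 and 46.0 CPM with tamoxifen, overlapping. Counts pooled over a group were 22 with tamoxifen and 10 with oil for Mki67, a ratio per total of 2.80 (exact 95% interval 1.27 to 6.63). For Top2a they were 29 and 10, a ratio of 3.69 (1.75 to 8.50). Leaving out single libraries, a check added after the data had been seen, moved both ratios. Without oil replicate 3 they became 10.7 for Mki67 (2.63 to 93.9) and 9.41 for Top2a (2.92 to 48.2), and without tamoxifen replicate 3 they became 1.60 for Mki67 (0.548 to 4.50) and 2.60 for Top2a (1.05 to 6.62). These intervals cover counting error only, and the per-library values of Mki67 were 0, 0, 27.7 and 6.78 CPM with oil and 19.7, 6.52 and 40.2 CPM with tamoxifen, which overlap. Rrm2 had 0 counts in the 4 oil libraries and 9.85, 9.79 and 11.5 CPM with tamoxifen, from 10 counts. That stood 4.25-fold above a floor set at 3 counts over the oil group. The exact 95% lower limit of the ratio, for counting error only, was 2.855. The summed level of the members was 817, 690.1, 808 and 708 CPM with oil and 1123, 1132 and 1334 CPM with tamoxifen, without overlap and with a ratio of 1.58. By Xist, 1 oil library was male and the other 6 libraries of the table female, and Cdkn1a was 1.66 higher on the log2 scale (edgeR adjusted p = 0.00905). The adult Jung libraries summed to 861, 823, 674 and 945 CPM with oil and 716, 985, 656 and 806 CPM with tamoxifen, overlapping (ratio 0.958). None of their 3 tested members, Tubb5, Smc2 and Mcm3, was called or had an unadjusted p below 0.05, DESeq2 called none, and 0% of all genes were called. Mki67 had 9 counts over the oil libraries and 2 over the tamoxifen libraries.

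Of the members in the BLZ-titled table, 3, Tubb5, Smc4 and Mcm7, could be tested, and none was called in any of 5 comparisons. Tamoxifen against oil gave 0.0581% of all genes in Littman and 0% in Jung. Mcm7 in Jung was the 1 member at an unadjusted p below 0.05 (1.05 ± 0.488, edgeR adjusted p = 0.868), as were 287 of 5163 genes in Jung. Littman against Jung gave 9.12% of all genes with oil and 5.48% with tamoxifen, the difference of the tamoxifen effects gave 0%, and DESeq2 called a member in 1 of the 5, Top2a between the lines with tamoxifen, which was not among the 3 tested with edgeR. Some cycling genes were seen in the Littman libraries only. Mki67, Top2a, Rrm2, Birc5 and Ube2c, named for this, had 0 counts in all 8 Jung libraries. The share of all genes seen only in Littman was not counted. Jung libraries were also shallower, at 184513 to 224692 counts against 224642 to 236106. Cenpa and Mcm3 were among the members seen in both lines. With tamoxifen, Mcm7 was lower in Littman, at a pooled ratio to Jung of 0.518 (exact 95% interval 0.289 to 0.907, counting error only). In Littman, Mki67 stood at 0, 0 and 8.85 CPM with oil and 64.3, 12.7, 31.2 and 0 CPM with tamoxifen, and Top2a at 12.9, 21.9 and 17.7 and 51.5, 33.9, 44.5 and 13.2 CPM. The tamoxifen libraries reached higher, and the lowest of them lay among the oil libraries. Over the tamoxifen groups, Top2a in Littman stood 9.06-fold above a floor set at 3 counts over the Jung group, and Mki67 6.86-fold. The exact 95% lower limits of the ratios, for counting error only, were 6.96 and 5.18. Without Littman tamoxifen replicate 1, Mki67 stood 3.67-fold above that floor. Within Littman, pooled counts of Mki67 were 25 with tamoxifen and 2 with oil, a ratio of 9.34 (exact 95% interval 2.33 to 81.3, counting error only). It was 5.00 (1.07 to 46.9) without Littman tamoxifen replicate 1. Without Littman oil replicate 3, which held both oil counts, Mki67 with tamoxifen stood 4.18-fold above a floor of 3 counts. Cdk1 was seen in both lines, at 30.0, 35.0 and 35.4 CPM in Littman oil, 68.6, 46.6, 31.2 and 35.2 CPM in Littman tamoxifen, 21.1, 8.90, 26.2 and 0 CPM in Jung oil and 5.33, 15.9, 25.4 and 16.3 CPM in Jung tamoxifen. Littman values lay above all Jung values in both treatments, and the share of all genes that did so was not counted. The summed levels were 592, 586 and 796 CPM in Littman oil, 1493, 809, 1197 and 661 CPM in Littman tamoxifen, 633, 623, 519 and 639 CPM in Jung oil and 783, 668, 634 and 688 CPM in Jung tamoxifen, overlapping between treatments in each line. Without the first Littman tamoxifen library the Littman ratio of 1.58 became 1.35. That library and the third Littman oil library had neutrophil marker sums of 2420 and 2845 CPM. By Xist, the Littman oil libraries were all male, and 1 tamoxifen library was male and 3 female. The labels put BLZ945 on the Littman and not on the Jung libraries of this table, so line and depletion cannot be told apart.

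Other cell cycle genes were taken from a second list of 111. With vehicle, 3 of 52 tested rose against Cre- and 11 fell, which is 26.9% beside 27.2% of all genes. Beside Cdkn1a, the genes that rose were Ccnd1, cyclin D1, and Cdk6, which act together before S phase, at log2 2.34 and 0.66 (edgeR adjusted p = 1.98e-07 and 0.0285). The genes that fell included the replication clamp Pcna, the other cyclin D partner Cdk4, the gene Arl6ip1 and the alpha-tubulin Tuba1b, at log2 -1.15, -0.98, -0.72 and -0.64 (edgeR adjusted p = 0.00199, 0.00351, 0.0029 and 0.00662). Against oil 3 rose and 13 fell, 30.8% beside 31.4%, so both shares were near the background. In the postnatal Littman comparison 2 of 54 rose, Cdkn1a and the alpha-tubulin Tuba1c (0.77, edgeR adjusted p = 0.0488), and none fell (3.70% beside 7.80% of all genes). In the pups, the Cdkn1a log2 fold change of Littman Cre+ against Cre- exceeded that of Jung tamoxifen against oil by 1.49 (edgeR adjusted p = 0.00552). The first is a difference of genotype, both with tamoxifen, and the second a difference of treatment. With UC2288, Cre+ pups had more Cdkn1a (2.68) and more of the securin gene Pttg1 (1.76) than Cre- pups (edgeR adjusted p = 2.46e-07 and 0.0469). In the BLZ-titled Littman libraries Cdkn1a stood at 724 ± 68.2 CPM with tamoxifen (SD, n = 4) and 108 ± 34.6 CPM with oil (SD, n = 3), and it was the 1 of 23 tested that was called there. Cdkn1a was thus called higher in tamoxifen Cre+ Littman libraries, against Cre- or oil, in each of the 4 tables that hold them.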

How the data were processed

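Sorted microglia of 70 libraries in 17 groups were measured by CEL-Seq2, per the labels' protocols, from 15 of 30 µL of lysate of 500 cells, with a UMI of 10 bases per read. The 5 deposited tables hold whole-number counts per gene, which the authors made on GRCm38 with HISAT2 and featureCounts, after Trim Galore and UMI-tools, per the submitters' processing notes. The sources used here give no versions, no strand setting and no statement on UMI collapsing. Cre+ and Cre-, tamoxifen and oil follow the sample titles.

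Each table was fitted whole, with all of its groups and no covariates, in edgeR 4.0.16 (R 4.3.3): filterByExpr with a minimum count of 10, TMM scaling, the quasi-likelihood test, and Benjamini-Hochberg adjustment over all tested genes at 0.05. Standard errors are the fold change divided by the square root of the F statistic. The script was tested on simulated data. DESeq2 1.42.0, other scalings, no filter, the contrast's groups alone, a replicate block and each library left out were tried as alternatives. The pup tables were joined on shared gene IDs (17389) for their difference, which was added after the data were seen, as was leaving out mitochondrial genes. Members and lists were chosen with earlier results of these data known. The genes named are those called in a comparison, with per-library values for up to 8 by smallest adjusted p, plus Mki67, Top2a, Cdk1, Mcm5, Mcm6, Rrm2 and Tyms where tested, the 3 most abundant members, Cx3cr1 and Cdkn1a. Racgap1, Tpx2, Nusap1, Kif11, Kif23, Plk1, Aurkb, Ccna2, Cenpe and Cenpf were named after their values were seen.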

Additional observations from a re-analysis of the deposited data

Results flagged for a closer look

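In 124 checks for a single library far from the rest, each of 1 measure in 1 group of 4 to 10 libraries, 12 found one, where chance gives about 1 in 20. Checks of several measures in the same libraries are not independent. Jung tamoxifen pup replicate 1 accounted for 6 of them: its members summed to 3106 CPM where the other 3 libraries had 1281 to 1467, and to 2391 CPM against 850 to 985 without Hmgb2, Tubb5 and Stmn1. In the same library Mki67 stood at 282 CPM (others 69.3 to 82.0), Top2a at 191.5 CPM (48.6 to 69.7), Smc4 at 130.3 CPM (42.7 to 55.2) and Stmn1 at 69.2 CPM (32.0 to 37.8). One Jung oil pup library had 17.5 CPM of Ccnb2 (others 5.09 to 8.41), and one had 17.8 CPM of Rrm2 (others 5.32 to 7.97). Rrm2 stood at 259.6 CPM in vehicle Cre- replicate 4 (others 58.2 to 117). Birc5 stood at 31.7 CPM in UC2288 Cre+ replicate 5 (others 62.4 to 72.1). In the adults, one BLZ-titled Jung oil library summed to 519 CPM (others 623 to 639), and one adult Littman oil library to 409 CPM without Hmgb2, Tubb5 and Stmn1 (others 264 to 282).

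The effect of Cre differed between UC2288 and vehicle for Cdk1 (log2 difference 1.54) and Ube2c (1.88). Between the pup tables, the Cre effect in the vehicle table minus that in the postnatal table was called for 18 members. The mitotic ones were Ccnb1 (-2.70), Ccnb2 (-2.67), Ube2c (-2.60), Aurka (-2.14), Birc5 (-1.79), Cenpa (-1.78), Cdk1 (-1.76), Stmn1 (-1.69), Hmgb2 (-1.66), Ccna2 (-1.64), Cenpf (-1.41), Mki67 (-1.34) and Tubb5 (-0.72). The replication and G1/S ones were E2f1 (-3.11), Mcm7 (-1.68), Tk1 (-1.37), Rrm1 (-1.29) and Mcm3 (-1.21). Not all of the 18 were tested in both tables on their own, since E2f1 was below the count minimum in the postnatal table and Aurka in the vehicle table. The differences are on the log2 scale, and table, vehicle and any difference in age or schedule cannot be told apart.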

How the results depend on the processing

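Counts of members called kept within 1.5 times of their value in 112 of 135 alternatives and in 173 of 204 fits without 1 library, and no direction reversed. These totals include comparisons with a count of 0, where 0 again was taken as kept and no reversal was possible. Among them are the adult comparisons, with only 3 to 5 members tested, so the totals overstate how stable the calls were. With DESeq2 the count was 0 and not 2 in the postnatal Littman genotype comparison, 2 and not 5 between the lines with tamoxifen, 1 and not 0 for UC2288 against vehicle in Cre+, and 1 and not 0 between the BLZ-titled lines with tamoxifen. With column totals it was 1 in the postnatal genotype comparison, 10 and not 17 in the vehicle genotype comparison, 1 and not 2 for UC2288 by Cre, and 10 and not 18 between the pup tables. Without the low-count filter it was 5 in the postnatal genotype comparison, 2 and not 0 for Jung tamoxifen against oil pups, 8 between the postnatal lines with tamoxifen, 8 and not 3 for Jung oil against Littman Cre-, 2 and 5 and not 0 between the BLZ-titled lines with oil and tamoxifen, and 1 and not 0 for the postnatal line difference. With the contrast's groups alone it was 1 for Jung tamoxifen against oil, 7 for Jung oil against Littman Cre- and 1 for UC2288 by Cre. The cause of these shifts was not tested.

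Replicate numbers were not treated as pairs, since no comparison had every pair's correlation of deviations over 0.1 (range -0.359 to 0.344). That rule cannot show that pairing was absent. In each group of the postnatal table, replicates 1 and 2 were male by Xist, and replicates 4 and 5, where present, female. With the replicate block the count was 4 in the postnatal genotype comparison, 2 for Jung tamoxifen against oil, 8 for Jung oil against Littman Cre-, 1 and not 0 for UC2288 Cre+ against Cre-, and 1 for UC2288 by Cre.

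Leaving out 1 library gave ranges of 0 to 5 for the postnatal genotype comparison, 1 to 14 between the lines with tamoxifen, 3 to 6 for Jung oil against Littman Cre-, 0 to 1 for UC2288 in Cre+, 0 to 5 for UC2288 by Cre, 11 to 20 between the pup tables, 12 to 16 for the vehicle genotype comparison and 10 to 14 for tamoxifen against oil with vehicle. Of 461 single-member values, 386 kept their call and 75 lost it in the same direction. These values hold the other settings tried for each call. Of a call's fits without 1 library, they hold only the fit with the highest adjusted p. Losses over all such fits are thus not in these totals. Summed ratios without Hmgb2, Tubb5 and Stmn1 moved to 1.01 for UC2288 in Cre+, 1.35 and 2.11 between the BLZ-titled lines with oil and tamoxifen, and 1.82 in adult Littman. Of the members, 3 to 5 per adult table had enough counts to be tested, so most members' changes were not detectable at this depth.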
